A study of Mus musculus with 5 samples.

Results

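Semaphorin 7a (Sema7a), 3 further semaphorin ligands (Sema3c, Sema4b and Sema6a) and 5 semaphorin receptors (Plxnc1, Plxna1, Plxnb2, Nrp1 and Nrp2) were followed across 5 RNA libraries. All were made from B16F10, a line of pigmented melanoma cells from mouse skin. The 9 genes were picked by symbol out of 54100 gene rows, because Sema7a stood far higher in dynamic suspension than in the conventional 3D culture. That contrast of Sema7a is therefore a description and supports nothing further. Each group was 1 library: dynamic suspension culture and conventional 3D culture of cells with the genotype WT, lines labelled HIF-1α overexpression and HIF-1α knockdown, and a line labelled shControl that also carries the genotype WT. HIF-1α belongs to a transcription factor through which cells respond when oxygen is scarce, and the series asks how it relates to stem-like tumour cells. All 5 samples carry 1 and the same growth description, spheroids shaken without serum or added growth factors for 7 to 10 days at 60 to 80 rpm, and none lists a treatment. How the cultures differed, and which construct, promoter or clone made the labelled lines, is thus known from the titles and genotypes alone. Every library pooled 3 repeats, so a comparison sets 1 library against 1 other and the spread between repeats is unknown.

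Semaphorins are secreted or membrane-bound proteins, first known as axon guidance cues, that act through plexin receptors. Plexins are single-pass receptors whose cytoplasmic part switches off small GTPases of the Ras and Rap families and so loosens cell adhesion and the actin skeleton. Secreted class 3 semaphorins bind neuropilins, which lack a signalling domain of their own and pair with A-type plexins, and which also bind vascular endothelial growth factors. Semaphorin 7a is held to the membrane by a lipid (GPI) anchor and has a pair of known receptors, plexin C1 and integrins with the β1 chain. In human melanocytes semaphorin 7a is known to act on cell spreading and dendrite growth through these receptors.

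Sema7a (ENSMUSG00000038264) lies on chromosome 9 of GRCm38, from 57940112 to 57962865 on the plus strand. Nrp2 (ENSMUSG00000025969) lies on chromosome 1, 62703285 to 62818695, plus strand, and Plxnc1 (ENSMUSG00000074785) on chromosome 10, 94790866 to 94944835, minus strand. The sequences just upstream of these 3 genes are shown because Sema7a and Nrp2 were the 2 members that dynamic suspension had at more than 2-fold the conventional 3D level, and Plxnc1 encodes the plexin that binds semaphorin 7a. They come from RefSeq on GRCm38.p6, are cut where the annotated gene begins, and run 5′ to 3′ on the strand of the gene. Capitals mark the core of the HIF binding site, in its form GCGTG, searched on both strands.
Sema7a, chr9:57939862-57940111: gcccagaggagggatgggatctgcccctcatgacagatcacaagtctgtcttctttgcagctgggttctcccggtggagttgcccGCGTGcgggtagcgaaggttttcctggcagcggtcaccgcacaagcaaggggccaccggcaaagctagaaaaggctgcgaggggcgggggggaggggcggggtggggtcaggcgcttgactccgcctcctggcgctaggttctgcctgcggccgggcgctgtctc
Nrp2, chr1:62703067-62703284: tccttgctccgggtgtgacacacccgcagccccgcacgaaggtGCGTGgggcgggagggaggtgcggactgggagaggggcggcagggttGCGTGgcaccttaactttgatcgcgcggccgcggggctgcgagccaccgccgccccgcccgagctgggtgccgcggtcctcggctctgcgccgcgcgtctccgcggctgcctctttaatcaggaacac
Plxnc1, chr10:94944846-94945095: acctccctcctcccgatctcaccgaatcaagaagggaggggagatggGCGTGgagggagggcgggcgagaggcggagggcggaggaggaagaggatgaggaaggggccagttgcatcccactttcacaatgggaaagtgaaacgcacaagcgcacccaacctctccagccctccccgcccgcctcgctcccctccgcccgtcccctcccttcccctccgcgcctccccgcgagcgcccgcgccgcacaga

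The core in Sema7a lay 161 to 165 bases before the RefSeq start, and Nrp2 held 2 cores. Promoter sequences were matched for 7 of the 9 genes. In the 250 bases before the start, GCGTG was found in 5 of the 9 windows of these 7 genes, against 28.2% of 32851 mouse promoter windows. ACGTG, the other form of the core, was found in 3 of the 9 windows, those of Sema3c and Sema4b, against 16.6% of windows. The AP-1 motif TGANTCA and the E-box CATGTG were in 0 of the 9, against 6.75% and 12.3% of windows. The E-box CACGTG, bound by the melanocyte factor MITF among others, was in 1 of the 9, the second start of Sema4b, where it overlaps ACGTG on both strands, against 6.02% of windows. Windows of the 7 genes were rich in G and C (66.4% in Sema7a, 72.4% in Nrp2 and 68.8% in Plxnc1, against a median of 52.4%). A C followed by G occurred 17 times in Sema7a, 32 times in Nrp2 and 22 times in Plxnc1, against a median of 6. Both forms of the HIF core hold this pair, and the windows compared were not matched for base content. These are letter matches and not measured binding.

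Levels are given in CPM, counts scaled to a common library total, after TMM scaling, which evens out library composition. The deposited values summed to 59493240 to 61267892 in dynamic suspension, conventional 3D and shControl, whose columns were taken as estimated counts. They summed to 15393189 and 14803426 in the libraries labelled overexpression and knockdown, whose columns were taken as plain counts. This kind of column was inferred from the values and is not given by the labels. The kind of column and the group cannot be told apart in either comparison with shControl. Hif1a, the targeted gene, went against the label knockdown, with 95.1 CPM there against 61.3 CPM in shControl, so that library is called by its label only. The library labelled overexpression had 384 CPM of Hif1a, beside 390.5 CPM in dynamic suspension and 541.6 CPM in conventional 3D. Its Hif1a thus stood above that of shControl but above neither of these cultures with the genotype WT. All 7 melanocyte markers were present in every library, summing to 14699 to 30823 CPM. Of markers of other cells, the haemoglobin genes Hba-a1 and Hbb-bs, the endothelial Cdh5, Emcn and Tek, the leukocyte genes Cd3e and Itgam and the epithelial Epcam were at 0 throughout. Endothelial Vwf was 1.04 to 10.7 CPM and Cd68, a gene of macrophage lysosomes, 0.788 to 13.2 CPM. Neuronal Tubb3 and Map2 were detected in every library, at 78.5 to 365.5 and 6.43 to 13.7 CPM, whereas Rbfox3 and Snap25 stayed under 1 CPM. The 7 fibroblast markers summed to 29.3, 83.4, 15.6, 35.6 and 29.7 CPM in dynamic suspension, conventional 3D, the libraries labelled overexpression and knockdown, and shControl. In bulk RNA, fewer cells of a type and less RNA per cell cannot be told apart.

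**Figure D1:**
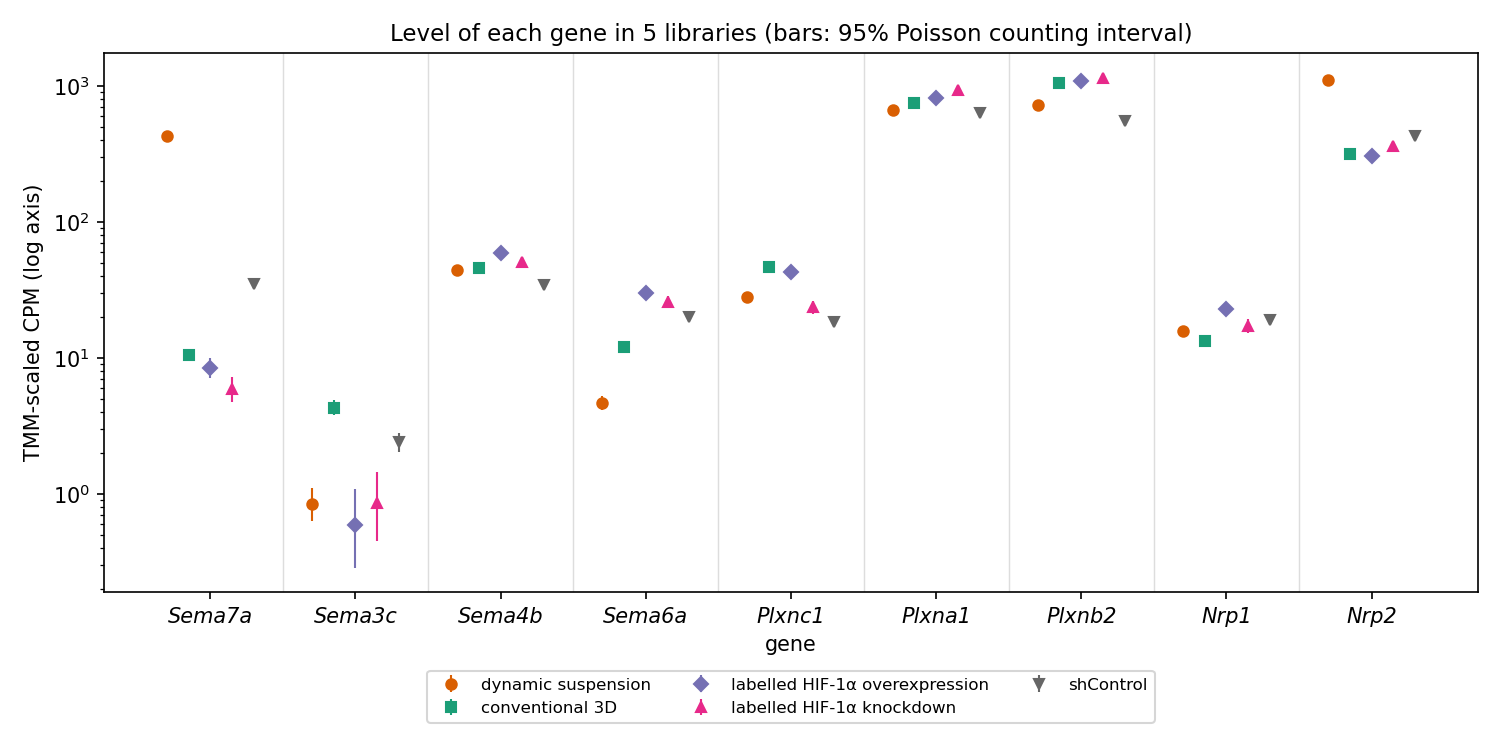
TMM-scaled CPM on a log axis (y) of the 9 genes (x) in each of the 5 libraries; points are single libraries and bars are 95% Poisson counting intervals. Sema7a reaches 425 CPM in dynamic suspension and is at most 35.2 CPM elsewhere, Nrp2 is also highest there at 1105 CPM, and Sema3c and Sema6a are highest in other libraries.

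Sema7a was 425 CPM in dynamic suspension and 10.6 CPM in conventional 3D culture, and 8.45, 5.91 and 35.2 CPM in the libraries labelled overexpression and knockdown and in shControl. The dynamic suspension library stood apart from the other 4, and shControl came second. The 95% counting intervals of conventional 3D (9.78 to 11.5 CPM) and of the library labelled overexpression (7.12 to 9.97 CPM) overlapped, as did those of the libraries labelled overexpression and knockdown (4.75 to 7.26 CPM). Among genes averaging 1 CPM or more, Sema7a ranked at percentile 97.8 in dynamic suspension, 28.9 in conventional 3D, 26.4 and 23.3 in the libraries labelled overexpression and knockdown, and 55.9 in shControl. The ratio of dynamic suspension to conventional 3D culture was 39.9-fold (log2 ratio 5.31, 95% counting interval 5.20 to 5.44), which is the value the gene was chosen for.

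Measured per kilobase of exon, so that genes can be set side by side, Sema7a was the most abundant of the 20 mouse semaphorins in dynamic suspension and supplied 63.4% of their summed level. In conventional 3D culture it ranked at number 7 and supplied 4.14%. Its share was 2.15% (rank 9) in the library labelled overexpression, 1.95% (rank 10) in the library labelled knockdown and 14.2% (rank 3) in shControl. In these 4 libraries Sema3b, a secreted class 3 semaphorin, or Sema4c, a membrane-bound ligand of plexin B2, led the family instead. Sema3b was 29 CPM per kilobase in dynamic suspension and 19.9 CPM per kilobase in conventional 3D culture.

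The receptor genes of semaphorin 7a were not highest in dynamic suspension. Plxnc1 was 28.3 CPM in dynamic suspension and 46.6 CPM in conventional 3D culture, and 42.5, 23.5 and 18.4 CPM in the libraries labelled overexpression and knockdown and in shControl. It was highest in conventional 3D culture and in the library labelled overexpression, whose counting intervals overlapped, and lowest in shControl. Per kilobase, Sema7a transcripts were 38 times those of Plxnc1 in dynamic suspension and 0.578 times in conventional 3D culture; the ratio was 0.503 and 0.636 in the libraries labelled overexpression and knockdown and 4.85 in shControl. Itgb1, the β1 integrin chain, stood at 525 CPM in dynamic suspension and 540 CPM in conventional 3D culture, and at 768.5, 588 and 539 CPM in the libraries labelled overexpression and knockdown and in shControl. Itga1, the α1 chain that pairs with it, was 5.63 CPM in dynamic suspension and 18 CPM in conventional 3D culture (log2 ratio -1.67, interval -1.86 to -1.50), and 27.3, 10.2 and 9.56 CPM in the other 3 libraries in the same order. Plxnc1 shares 1.38% of its exon bases with Gm48718, a gene at under 0.02 CPM in every library.

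The second neuropilin showed the other high value of the dynamic suspension library. Nrp2 was 1105 CPM in dynamic suspension and 315 CPM in conventional 3D culture, and 303, 363.5 and 428 CPM in the libraries labelled overexpression and knockdown and in shControl. Dynamic suspension lay above the other 4, which spanned 303 to 428 CPM, and the intervals of conventional 3D and the library labelled overexpression overlapped. Between the culture methods Nrp2 was 3.51-fold higher in dynamic suspension (log2 ratio 1.81, interval 1.79 to 1.84). Nrp1, its relative and a receptor of Sema3a and of vascular endothelial growth factor, was 15.8, 13.4, 22.9, 17.2 and 18.9 CPM in dynamic suspension, conventional 3D, the libraries labelled overexpression and knockdown, and shControl. All 5 levels of Nrp1 lay within 1.71-fold of each other. Per kilobase, Nrp2 supplied 23.3% of the summed level of the 11 plexins and neuropilins in dynamic suspension, at 93.3 CPM per kilobase, beside 1.61 CPM per kilobase of Nrp1.

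Plexins A1 and B2 were abundant in every library. Plxna1 (ENSMUSG00000030084, chromosome 6, 89316314 to 89362620, minus strand), which encodes a plexin that signals for class 3 semaphorins together with a neuropilin, was 665 and 752 CPM in dynamic suspension and conventional 3D, 816.5 and 935.5 CPM in the libraries labelled overexpression and knockdown, and 630.5 CPM in shControl. Its levels spanned 1.48-fold, and no comparison passed 2-fold. Antisense to it lies Gm26811, which overlaps 10.7% of its exon bases and was 4.41 CPM in the library labelled overexpression and 0.639 to 0.919 CPM in the others; whether strand was used in counting is not given in the sources used here. Plxnb2 (ENSMUSG00000036606, chromosome 15, 89155549 to 89180788, minus strand), a receptor of class 4 semaphorins, was 721 and 1055 CPM in dynamic suspension and conventional 3D, 1091 and 1136 CPM in the libraries labelled overexpression and knockdown, and 550.0 CPM in shControl. It was lowest in shControl and next lowest in dynamic suspension, and the other 3 libraries lay close together.

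Sema4b (ENSMUSG00000030539, chromosome 7, 80186841 to 80226527, plus strand), a membrane-bound class 4 semaphorin, was among the steadiest of the 9. Its levels were 44.2 and 45.7 CPM in dynamic suspension and conventional 3D, 59.5 and 51.1 CPM in the libraries labelled overexpression and knockdown, and 34.2 CPM in shControl, a span of 1.74-fold. Sema6a (ENSMUSG00000019647, chromosome 18, 47235598 to 47368870, minus strand), a membrane-bound ligand of plexins A2 and A4, was 4.67 CPM in dynamic suspension, 12.1 CPM in conventional 3D, 29.9 and 26 CPM in the libraries labelled overexpression and knockdown, and 20.1 CPM in shControl. Dynamic suspension was lowest for Sema6a, a mirror of its place for Sema7a and Nrp2. The receptor genes Plxna2 and Plxna4 lay at no more than 1.48 and 0.649 CPM in any library.

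Sema3c (ENSMUSG00000028780, chromosome 5, 17574281 to 17730268, plus strand), a secreted class 3 semaphorin that binds neuropilins, was the scarcest of the 9. It was 0.844 and 4.32 CPM in dynamic suspension and conventional 3D, 0.595 and 0.853 CPM in the libraries labelled overexpression and knockdown, and 2.39 CPM in shControl. The deposited values behind the 2 labelled lines were only 10 and 13, and the intervals of the 3 lowest libraries overlapped. Conventional 3D culture, where Sema3c was highest, was also where the 7 fibroblast markers summed highest, and the library labelled overexpression, where Sema3c was lowest, had the lowest sum with 4 of the 7 markers at 0, Col1a2 and Dcn among them. The markers were split. Pdgfrb was 12.6 CPM in the library labelled overexpression against 5.91 CPM in shControl. The library labelled knockdown had the second highest sum (35.6 against 29.7 CPM in shControl) with less Sema3c (0.853 against 2.39 CPM). Most of that sum was Pdgfrb (24.6 CPM), and Pdgfra was also above shControl (3.02 against 1.27 CPM). Below shControl there were Col1a1 (5.78 against 8.15 CPM), Col1a2 (2.17 against 11 CPM), Dcn (0 against 2.5 CPM), Lum (0 against 0.455 CPM) and Thy1 (0 against 0.373 CPM). Col1a1 ran in the same order of libraries as Sema3c, and Pdgfrb did not. The part of such cells in the level of Sema3c was not tested.

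**Figure D2:**
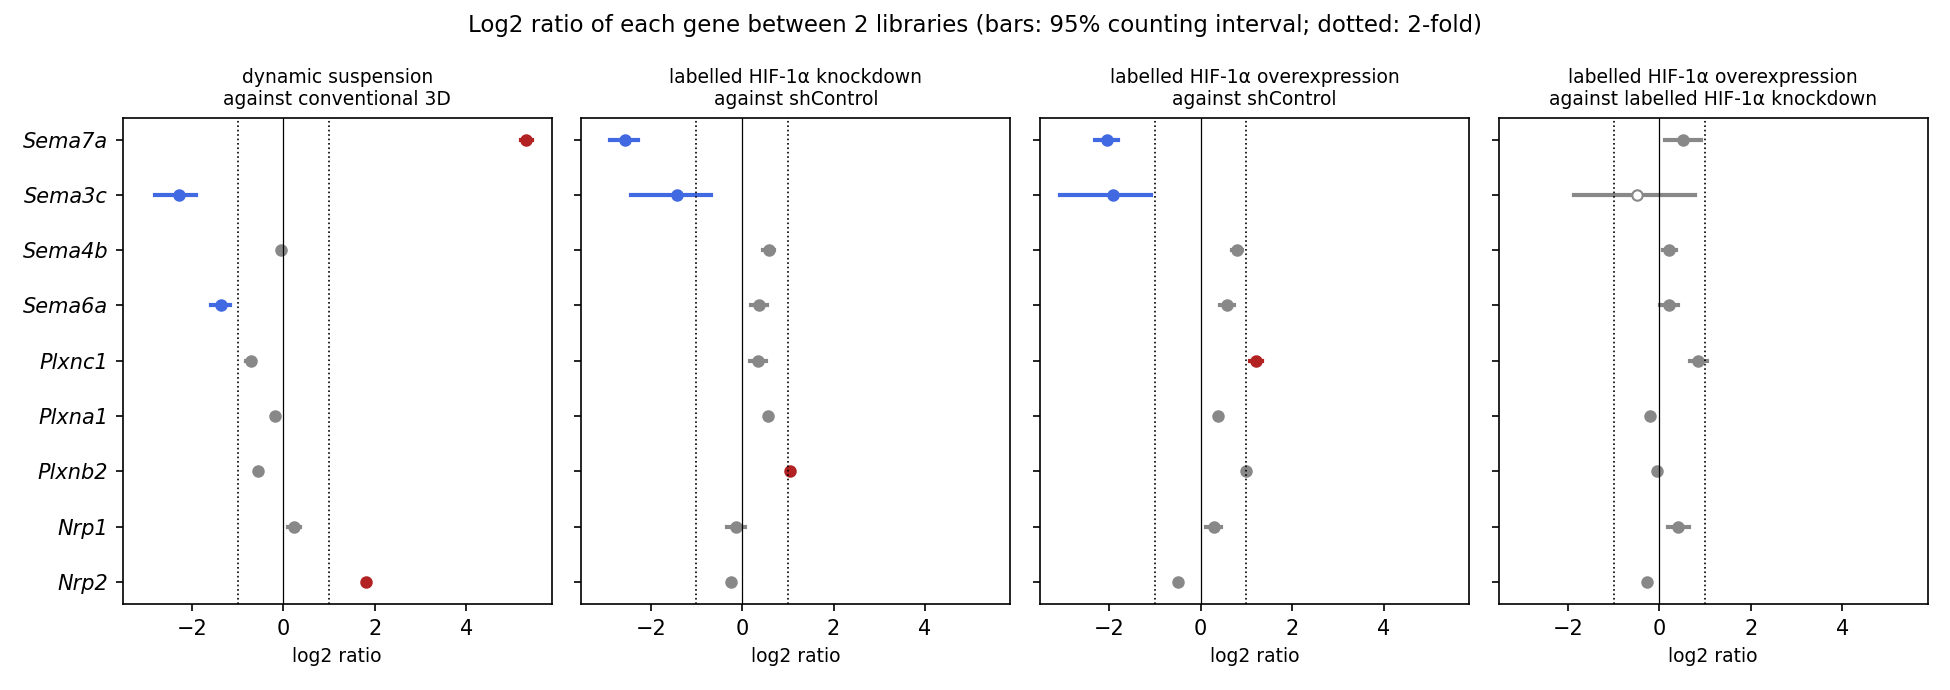
Log2 ratio (x) of each of the 9 genes (y) in 4 comparisons of 2 libraries; bars are 95% counting intervals, dotted lines mark 2-fold, red and blue mark genes called higher and lower, and an open point is a gene under 1 CPM. The middle panels share the shControl library. Sema7a lies at 5.31 between the culture methods, and no gene is called between the 2 labelled lines.

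The first comparison asks how dynamic suspension differs from conventional 3D culture as a way to enrich stem-like cells. Calls beyond 2-fold required a log2 ratio of at least 1 in size, and that the 2 libraries averaged 1 CPM or more and the counting interval left out equality. All 9 genes reached 1 CPM. Sema7a and Nrp2 were higher beyond 2-fold, Sema3c (log2 ratio -2.29, interval -2.82 to -1.91) and Sema6a (-1.36, interval -1.58 to -1.17) lower, and the other 5 passed in neither direction. Over all genes 14.1% were called (6.44% higher and 7.64% lower), and nothing is read from the count of members, since this contrast chose them. The median log2 ratio was -0.36 over the 8 genes without Sema7a and -0.02 over all genes tested. Plxnc1 (-0.72) and Plxnb2 (-0.55) lay below 0 and Nrp1 above it (0.23), all short of 2-fold. Scaling by total counts moved the median log2 ratio up by 0.19, which turned Plxna1 from -0.18 to 0.01 and Sema4b from -0.05 to 0.14, and changed the share of higher genes among all called genes to 61.4%, against 45.7% with TMM.

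Of the 20 semaphorins, 16 reached 1 CPM between the culture methods, with 2 higher and 3 lower beyond 2-fold and a median log2 ratio of -0.33. Of the 2 higher, 1 was Sema7a, which was chosen for this contrast, so nothing is read from that count. The share over all genes, to be set beside each list count here, was 14.1% called, 6.44% higher and 7.64% lower. Beside the members, Sema3e, a ligand of plexin D1 that needs no neuropilin, was 5.28 CPM in dynamic suspension and 0.601 CPM in conventional 3D culture. Sema3f, a ligand of Nrp2, was 2.80 and 5.75 CPM in the same order. Among the 11 plexins and neuropilins, 9 were tested, and Nrp2 was the 1 gene called. Of the ligands that neuropilins share with vascular growth factor receptors, Vegfa (132 against 39 CPM, log2 ratio 1.76) and Pgf, placental growth factor (16 against 4.55 CPM, 1.80), were higher, so 2 of 5 tested genes of that list were called and 0 were lower. The coreceptors had 2 of 5 lower and 0 higher: Itga1, given above, and L1cam, an adhesion molecule that joins Nrp1 in binding Sema3a (3.10 against 7.76 CPM, -1.31). Of 23 tested intracellular mediators, 3 were lower and 0 higher: Mical1 (30.2 against 68.9 CPM, -1.19) and Mical2 (2.22 against 12.4 CPM, -2.46), enzymes that oxidise actin downstream of plexins, and Dpysl3, a collapsin response mediator (23.4 against 74.9 CPM, -1.68). The median of the mediators was -0.18 and turned to 0.03 with total-count scaling. Fibroblast markers were lower with these genes, 5 of 7 beyond 2-fold (median -1.96), and their part was not tested.

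**Figure D3:**
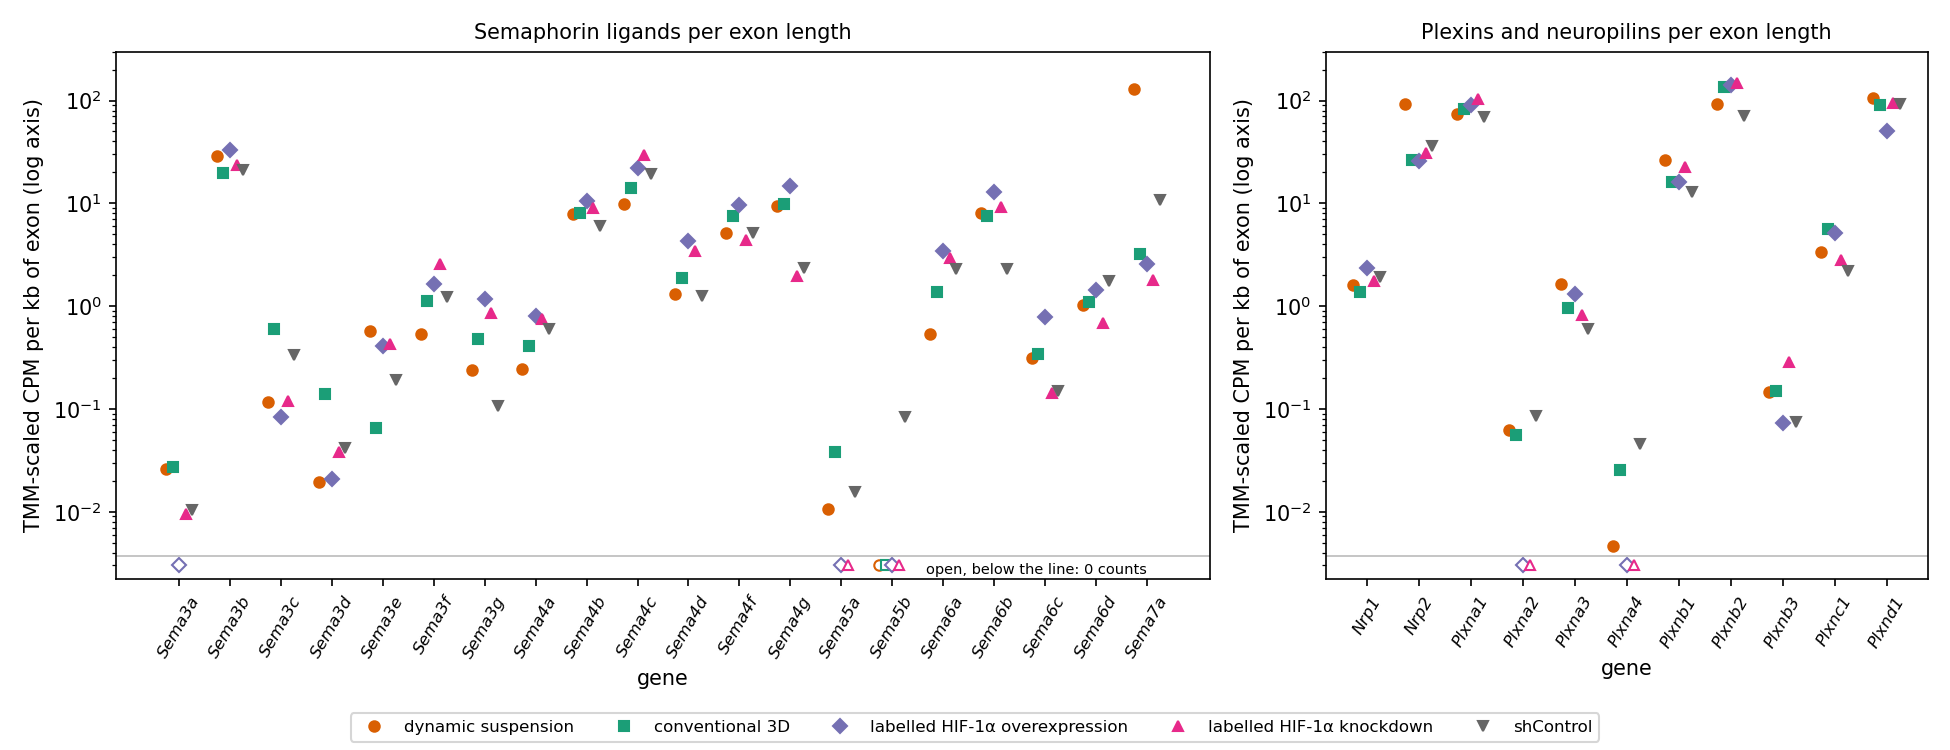
TMM-scaled CPM per kilobase of exon on a log axis (y) for 20 semaphorins and for 11 plexins and neuropilins (x); each point is 1 library, and open points below the line are genes with 0 counts. Sema7a lies above all other ligands in dynamic suspension at 128.8 CPM per kilobase, while Plxnb2, Plxna1, Plxnd1 and Nrp2 lead the receptors.

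The library labelled knockdown was set against shControl to ask what the targeting of HIF-1α changes, with the caveat of its Hif1a level given above. Of the 9 genes, 1 was higher and 2 lower beyond 2-fold, against 23.7% called (8.05% higher and 15.7% lower) among 12639 genes tested. Sema7a was 5.96-fold lower in the library labelled knockdown (5.91 against 35.2 CPM, log2 ratio -2.57, interval -2.90 to -2.27) and Sema3c 2.80-fold lower (log2 ratio -1.43, interval -2.43 to -0.67). Plxnb2 was 2.07-fold higher (1136 against 550.0 CPM, log2 ratio 1.05, interval 1.02 to 1.07). With TMM taken over protein-coding genes without exon overlap the log2 ratio of Plxnb2 was 0.94, short of the call. Plxna1 (0.57) and Sema4b (0.58) stood above shControl and Nrp2 (-0.24) below it, all short of 2-fold, and the interval of Nrp1 held equality (-0.33 to 0.06).

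Elsewhere in the family, 15 semaphorins were tested in this comparison, 5 higher and 3 lower, with a median of 0.37 against 0.01 over all genes. The share over all genes, to be set beside each list count here, was 8.05% higher and 15.7% lower. The higher ones were Sema6b, a class 6 ligand (36.8 against 9.06 CPM, log2 ratio 2.02), Sema4d, the ligand of plexin B1 (26.4 against 9.56 CPM, 1.46), Sema3g (3.87 against 0.487 CPM, 2.87), Sema3e (4 against 1.79 CPM, 1.14) and Sema3f (13.4 against 6.36 CPM, 1.07). Sema6d, a ligand of plexin A1, was lower beside Sema7a and Sema3c (7.22 against 18.7 CPM, -1.36). Plexins and neuropilins had 2 of 9 higher and 0 lower, Plxnb2 and the scarce Plxnb3 (1.84 against 0.487 CPM, named after its value was seen). Coreceptors had 1 of 5 higher, L1cam (37.6 against 17.3 CPM, 1.12), and mediators 2 of 23 higher, Limk1, the kinase of cofilin (40 against 19.5 CPM, 1.03), and Rras, a GTPase that plexins switch off (25.5 against 10.1 CPM, 1.33). Of the 5 vascular growth factor genes tested, 0 were called, with a median of 0.63.

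Against shControl, the library labelled overexpression also had less Sema7a and Sema3c. Of the 9 genes, 1 was higher and 2 lower beyond 2-fold, against 36.3% called (16.1% higher and 20.1% lower) among 12881 genes tested. Sema7a was 4.17-fold lower (8.45 against 35.2 CPM, log2 ratio -2.05, interval -2.31 to -1.81) and Sema3c 4.01-fold lower (log2 ratio -1.92, interval -3.09 to -1.08). Plxnc1 was 2.31-fold higher (42.5 against 18.4 CPM, log2 ratio 1.21, interval 1.07 to 1.35). Plxnb2 lay just short of the call (1091 against 550.0 CPM, log2 ratio 0.99) and passed it with total-count scaling (1.06) and with DESeq2 size factors (1.01). Sema4b (0.80), Sema6a (0.57), Plxna1 (0.37) and Nrp1 (0.28) stood above shControl and Nrp2 (-0.50) below it. This comparison and the one before it share the shControl library, so a high or low value there moves both.

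In this comparison 16 semaphorins were tested, with 6 higher and 2 lower and a median of 0.72 against -0.02 over all genes. The share over all genes, to be set beside each list count here, was 16.1% higher and 20.1% lower. The higher ones were Sema4g, a class 4 ligand (126.5 against 20.3 CPM, log2 ratio 2.64), Sema6b (51.4 against 9.06 CPM, 2.50), Sema3g (5.36 against 0.487 CPM, 3.34), Sema6c (4.64 against 0.877 CPM, 2.34), Sema4d (33.3 against 9.56 CPM, 1.80) and Sema3e (3.81 against 1.79 CPM, 1.07). Of 8 tested plexins and neuropilins 2 were higher and 0 lower, Plxnc1 and Plxna3 (10.2 against 4.76 CPM, 1.10). Among 5 coreceptors, Met, the hepatocyte growth factor receptor that associates with B plexins (1480 against 678 CPM, 1.13), and Itga1 (27.3 against 9.56 CPM, 1.51) were higher and L1cam lower (5.95 against 17.3 CPM, -1.53). Of 23 mediators, Rras (77.9 against 10.1 CPM, 2.94) and Arhgef12, an exchange factor bound by B plexins (371.5 against 173 CPM, 1.10), were higher. The collapsin response mediators Crmp1 (56.7 against 128 CPM, -1.18) and Dpysl5 (0.417 against 1.93 CPM, -2.09) were lower. Vascular growth factor genes had 3 of 5 higher and 0 lower: Vegfa (130 against 43.6 CPM, 1.57), Pgf (18.3 against 4.64 CPM, 1.97) and Flt4, the receptor of Vegfc (3.57 against 1.64 CPM, 1.10).

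Between the lines labelled overexpression and knockdown, both taken as plain counts, 0 of the 8 genes tested were called, against 32.7% of 12305 genes. Sema3c was not tested, with a mean under 1 CPM. The log2 ratio of Sema7a was 0.51 (interval 0.13 to 0.91) and that of Plxnc1, the largest ratio of the 8, was 0.85 (interval 0.67 to 1.04). The remaining 6 lay between -0.26 (Nrp2) and 0.41 (Nrp1), and Plxnb2 (-0.06) changed sign with the scaling. Of 15 semaphorins tested, 4 were higher in the library labelled overexpression and 0 lower, against 17.7% higher and 14.9% lower over all genes. Those called were Sema4g (126.5 against 17.1 CPM, log2 ratio 2.89), Sema6c (4.64 against 0.853 CPM, 2.38), Sema4f (51.3 against 23.4 CPM, 1.13) and Sema6d (15 against 7.22 CPM, 1.05). Plexins and neuropilins had 0 of 9 higher and 1 lower, Plxnb3 (0.476 against 1.84 CPM, named after its value was seen). Met (1480 against 435 CPM, 1.77) and Itga1 (27.3 against 10.2 CPM, 1.41) were higher and L1cam lower (5.95 against 37.6 CPM, -2.65). Among 23 mediators Rras was higher (77.9 against 25.5 CPM, 1.61). Farp1, a Rac activator (60.1 against 160 CPM, -1.41), Crmp1 (56.7 against 161 CPM, -1.51), Dpysl5 (0.417 against 1.71 CPM, -1.92) and Cfl1, the actin-severing protein cofilin (500.0 against 1097 CPM, -1.13), were lower. Neuronal Tubb3 (126.1 against 365.5 CPM, -1.53) was lower with them and Map2 (13.7 against 6.43 CPM, 1.08) higher, and of 4 fibroblast markers tested 3 were lower and 0 higher (median -1.45); the part of such cells was not tested. Of 5 vascular growth factor genes, Pgf was higher (18.3 against 5.64 CPM, 1.69) and Vegfc lower (6.49 against 18.2 CPM, -1.48).

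**Figure D4:**
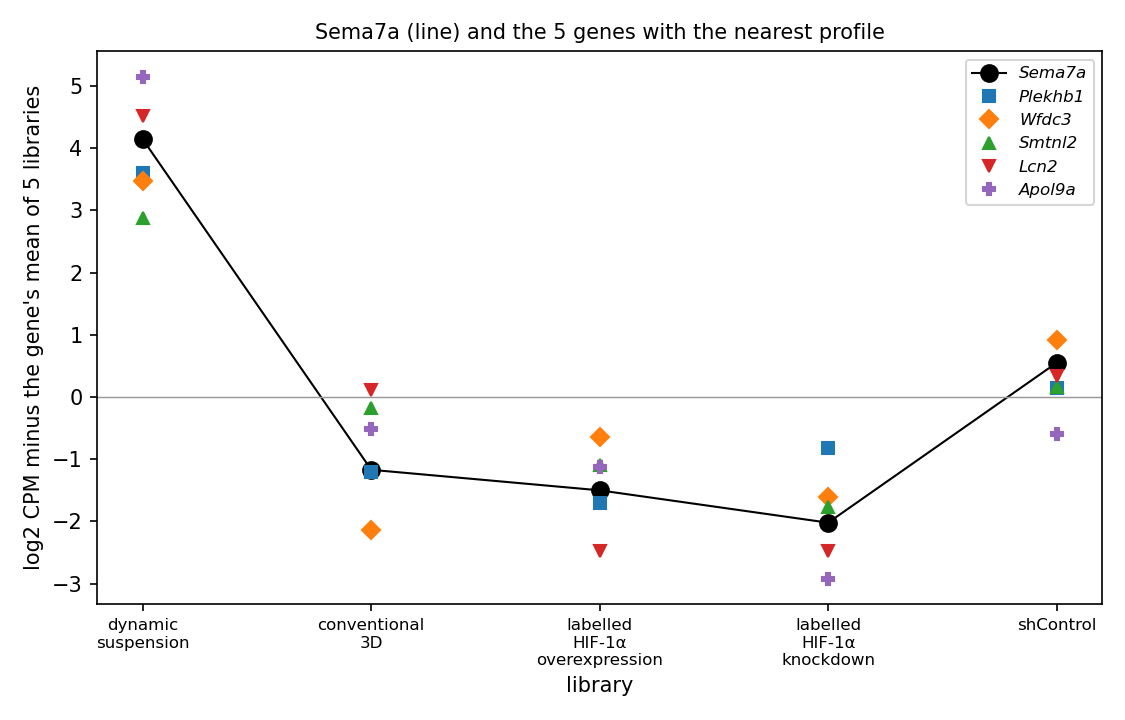
Log2 CPM minus each gene's own mean (y) in the 5 libraries (x) for Sema7a, drawn with a line, and the 5 genes nearest to it. All 6 genes are highest in dynamic suspension, which follows from choosing them for closeness to Sema7a. Plekhb1, the nearest, differs from Sema7a by a root-mean-square of 0.62.

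Genes with a profile like that of each member were sought among 7065 protein-coding genes that averaged 1 CPM or more and overlapped no other exon, by the root-mean-square difference of log2 CPM over the 5 libraries after each gene was centred on its own mean. The nearest to Sema7a were Plekhb1 (0.62), Wfdc3 (0.69), Smtnl2 (0.77), Lcn2, which encodes the iron-carrier-binding protein lipocalin 2 (0.78), and Apol9a (0.86). Plekhb1 was 20.6 CPM in dynamic suspension, 0.695 in conventional 3D, 0.476 and 0.919 in the libraries labelled overexpression and knockdown, and 1.83 in shControl. A peak in dynamic suspension follows from the way these genes were chosen. Wfdc3, Smtnl2, Lcn2 and Apol9a were under 1 CPM in every library but dynamic suspension, and Plekhb1 in every other library but shControl. All 5 therefore reached the minimum mean only through dynamic suspension. Lcn2 had 0 counts in both labelled lines, and Apol9a, whose near-identical copy Apol9b makes its counts uncertain, had 0 in the library labelled knockdown. Of the other members, 7 had closer neighbours: Rapgef6 for Nrp1 (0.03), Dcaf12 for Plxnb2 (0.04), Mfsd5 for Sema4b (0.04), Rab29 for Plxnc1 (0.09), Spry4 for Sema6a (0.13), Erbb3 for Nrp2 (0.14) and Myrfl for Sema3c (0.25). Erbb3, a receptor of neuregulin, was 182 CPM in dynamic suspension and 57.8 CPM in conventional 3D culture, and 54.8, 79.3 and 71.8 CPM in the other 3 libraries in the order used above.

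Among themselves the 9 genes fell apart by the same measure. The closest pair was Sema4b and Plxna1, 0.16 apart, and Sema4b, Plxna1 and Plxnb2 lay within 0.25 of each other. Sema7a was farther from each of the other 8 than any pair of these 3, from 1.59 to Nrp2 up to 3.12 to Sema6a. Because Sema7a was chosen for its high value in dynamic suspension, which enters each of these distances, nothing is read from them. Nrp1 and Nrp2 were 0.79 apart.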

How the data were processed

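RNA of 5 pooled B16F10 samples was sequenced from poly(A)-selected, strand-specific paired reads, per the labels' protocols. The tools StringTie, HISAT2 and cutadapt and the builds GRCm38.p6 and mm10 are listed, per the submitters' processing notes; the counting program is not given in the sources used here. The authors deposited 1 table per Ensembl gene. By their pattern, the deposited values of conventional 3D, dynamic suspension and shControl were taken as estimated counts (26.8% to 29.2% of values from 1 to 40 are multiples of 4). They were used as whole numbers as deposited. The columns of the labelled lines were taken as plain counts (17.3% for overexpression, 16.1% for knockdown). All 54100 identifiers matched GENCODE M21; 0 columns were left unassigned.

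Scaling used TMM in edgeR 4.0.16 (R 4.3.3) over all 5 libraries, and log2 ratios a prior count of 2. Intervals are exact binomial (Clopper-Pearson) for a ratio and exact Poisson for a level, at 95%; they cover counting error only and may be too narrow for estimated counts. A count of 0 allows up to 3 counts (0.0487 to 0.197 CPM). With 1 library a group there was no test and no p-value. The ratio calculation was tested on simulated data. Sequences came from RefSeq. The alternatives were other scalings (total counts, DESeq2 1.42.0 size factors, TMM over genes without exon overlap), a prior count of 0.5, other CPM minimums and estimated counts divided by 4. Named were the 9 members, list genes averaging 1 CPM or more and called in a comparison, and the nearest profiles. The members and lists were chosen with earlier results of these data known. One listed symbol, Ca9, matched no gene. A few genes that these rules select are not reported here.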

Additional observations from a re-analysis of the deposited data

How the results depend on the processing

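Over 252 recomputed log2 ratios of the 9 genes (36 ratios under 7 alternatives), 0 called ratios changed sign and 7 calls changed. Of these 7, 4 were Sema3c (3 comparisons) and Sema6a (1) falling under a minimum of 10 CPM, and 3 were Plxnb2, at 0.94 in the library labelled knockdown and at 1.06 and 1.01 in the library labelled overexpression, each against shControl, under the scalings named in the report. Dividing the estimated counts by 4 before the interval changed 0 of the 36 calls. The order of the 5 libraries held for 9 of the 9 genes with DESeq2 size factors, for 7 with TMM over genes without exon overlap and for 4 with total counts, where neighbouring levels of Sema4b, Plxnc1, Plxna1, Plxnb2 and Nrp2 changed places.

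Counts of called genes followed the CPM minimum. With no minimum, 4685 genes were called between dynamic suspension and conventional 3D culture (2470 higher, 2215 lower), against 1813 in the report (829 and 984). Against shControl, 4928 were called in the library labelled knockdown (1653 higher, 3275 lower; reported 2996) and 7441 in the library labelled overexpression (3452 higher, 3989 lower; reported 4672). With a minimum of 10 CPM, these became 843 (372 and 471), 1551 (645 and 906) and 2783 (1256 and 1527), and between the 2 labelled lines 2560 (1241 higher; reported 4019 and 2182). Fewer genes are tested under the higher minimum and more under none. No paired analysis was possible because each group has 1 library. Depth limits Sema3c most, whose values in the labelled lines were 10 and 13.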

Other observations

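A list of 7 genes held Hif1a itself, Epas1, which encodes a related HIF subunit, and reporters of low oxygen. Those called between the culture methods were higher in dynamic suspension, 3 of 7 with 0 lower, against 6.44% higher over all genes. They were Slc2a1, a glucose transporter (165.8 against 55.2 CPM, log2 ratio 1.59), Bnip3, a mitophagy receptor (640.4 against 156.6 CPM, 2.03), and Ankrd37 (6.75 against 0.226 CPM, 4.63), while Hif1a was 390.5 CPM in dynamic suspension and 541.6 CPM in conventional 3D culture. Against shControl, 5 of 6 tested were higher in the library labelled overexpression, Hif1a, Epas1 (log2 ratio 1.22), Egln3 (1.41), Bnip3 (2.22) and Ndrg1 (1.77), and 1 of 6 in the library labelled knockdown, Ndrg1 (1.61); over all genes 16.1% and 8.05% were higher in these comparisons. Between the labelled lines Hif1a (2.01), Egln3 (1.06) and Bnip3 (2.73) were higher in the one labelled overexpression, 3 of 7 against 17.7% over all genes. Hif1a is the gene that the label names, so its place in the counts for that library is not separate from the label. Of the 7 melanocyte markers, 0 were higher and 1 lower between the culture methods, 0 and 3 in the library labelled knockdown and 1 and 1 in that labelled overexpression against shControl, and 2 and 0 between the labelled lines. Over all genes, 14.1%, 23.7%, 36.3% and 32.7% were called in these comparisons in the same order.

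With a minimum of 10 CPM, the genes nearest to Sema7a in profile included Fos (root-mean-square difference 0.93), an immediate early transcription factor, Ifit1 (0.94), an interferon-induced RNA-binding protein, Anpep (0.98), an aminopeptidase, and Tnfrsf9 (1.05), a receptor of the tumour necrosis factor family. Anpep was 39.1 CPM in dynamic suspension, 2.82 CPM in conventional 3D, 2.14 and 4.66 CPM in the libraries labelled overexpression and knockdown, and 8.67 CPM in shControl. None of these 4 was among the 5 genes nearest at the lower minimum. They too were chosen for closeness to Sema7a, so a high value in dynamic suspension follows from the choice. Each also reached a mean of 10 CPM only with that library. Fos was 91.4 CPM there and at most 11.2 CPM elsewhere, Ifit1 97.5 and at most 13 CPM, and Tnfrsf9 82.2 and at most 10.8 CPM. With total-count scaling the neighbours were not recomputed.

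Of the receptors outside the 9 genes, Plxnd1, the receptor of Sema3e, was 779 CPM in dynamic suspension and 667 CPM in conventional 3D, 373 and 685 CPM in the libraries labelled overexpression and knockdown, and 677 CPM in shControl. Plxnb1, the receptor of Sema4d, was 252, 154, 156, 214.5 and 123 CPM in that order, highest in dynamic suspension and lowest in shControl. Neither passed 2-fold in a comparison.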
